A study of Mus musculus with 12 samples.

Results

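The catecholamine synthesis and storage genes are 9 genes of the adrenal medulla, chosen by name for their roles in chromaffin cells: the enzymes Th, Ddc, Dbh and Pnmt, the transporters Slc18a1, Slc18a2 and Slc6a2, and the transcription factors Phox2a and Gata3. These genes and the wider lists below were chosen with earlier results of these data known, so their counts may not be independent of the data. All 9 were found among the 24421 genes of the deposited table, and all 9 had a mean of at least 10 normalised counts, as did 14305 genes in all. To ask how loss of the cholesterol exporter Abcg1 from the adrenal cortex alters the gland, the study sequenced RNA of whole adrenals, cleared of fat, from 4 Abcg1 cKO mice, 4 Abca1 cKO mice and 4 controls. All were 2-month-old females on a mixed sv129-C57BL/6 background, and the sequenced groups shared a Cre allele at the aldosterone synthase locus (Cyp11b2), which is active in cortical cells. Abcg1 cKO and Abca1 cKO mice also carried 2 conditional alleles of the named gene. Controls had Cre and no conditional allele according to the series' description, whereas the methods also allow littermates with a single conditional allele. Control and Abca1 cKO libraries were taken by the study as 1 comparison group, called the combined group here.

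Chromaffin cells arise from the neural crest, lie in the medulla inside the cortex and release adrenaline and noradrenaline into the blood. Tyrosine hydroxylase (Th) turns tyrosine into L-DOPA, the rate-limiting step, Ddc turns L-DOPA into dopamine, Dbh turns dopamine into noradrenaline inside the granules, and Pnmt turns noradrenaline into adrenaline in the cytosol. The vesicular transporters load the granules with amine, and Slc6a2 takes noradrenaline back up at the cell surface. Steroids made in the cortex and carried through the medulla are known to maintain Pnmt. Aldosterone synthase is a cortical enzyme, and chromaffin cells are not the cells that this Cre marks.

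The values are the authors' mean normalised counts of each group, and the log2 ratio is that of Abcg1 cKO over the combined group after 1 was added to each mean. A mean does not show whether 1 of its libraries sets it, and for these genes there is a specific doubt. On inspection of the table, 1 of its 12 columns of single libraries lay well above the rest for nearly all of the 9 genes. Its name gives no group, and its part in the means was not computed, so the higher means below could rest largely on a single library. Values of single libraries were not used, because their column names match no sample label, so no spread between animals is given, no difference was tested, and control cannot be told apart from Abca1 cKO. "Higher" and "lower" below describe these means only, and a gene is counted as called where the ratio was at least 1.2 in 1 direction. The paper's cutoff joined this fold to an adjusted p-value, so it was stricter than a call here. In whole-gland RNA, fewer cells of a type and less RNA per cell cannot be told apart. The mean of Abcg1 itself, counted over the whole gene and not over the deleted part, was 305.4 in the combined group and 249.7 in Abcg1 cKO adrenals. That of Abca1 was 7791 and 10057. The combined mean of Abca1 includes the 4 libraries of Abca1 cKO, in which this gene is the target, so it is not a control level. By quantitative PCR against controls, the paper found Abcg1 transcripts reduced in Abcg1 cKO adrenals, by a larger share than these means show. It found Abca1 transcripts unaffected there.

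Transcripts of the catecholamine enzymes and transporters had higher means in Abcg1 cKO adrenals, whereas those of Phox2a and Gata3 had nearly equal means. The doubt over 1 high library applies to each of these values. Nearly equal means were not general to identity factors. Of 10 outside the members, 7 were called higher, with a median log2 ratio of 0.33. Of the 9 genes, 7 were higher by at least 1.2-fold and none was lower. Among all 14305 genes, 10.4% were higher and 12.2% lower by this rule. The median log2 ratio of the 9 genes was 0.41, against 0.001 over all genes. At 1.1-fold the count was also 7, with a background of 22.0%, and at 1.5-fold it was 2, Th and Pnmt, with a background of 2.59%. Summed over the 9 genes, the means came to 27489 in the combined group and 41127 in Abcg1 cKO adrenals, a ratio of 1.496.

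**Figure D1:**
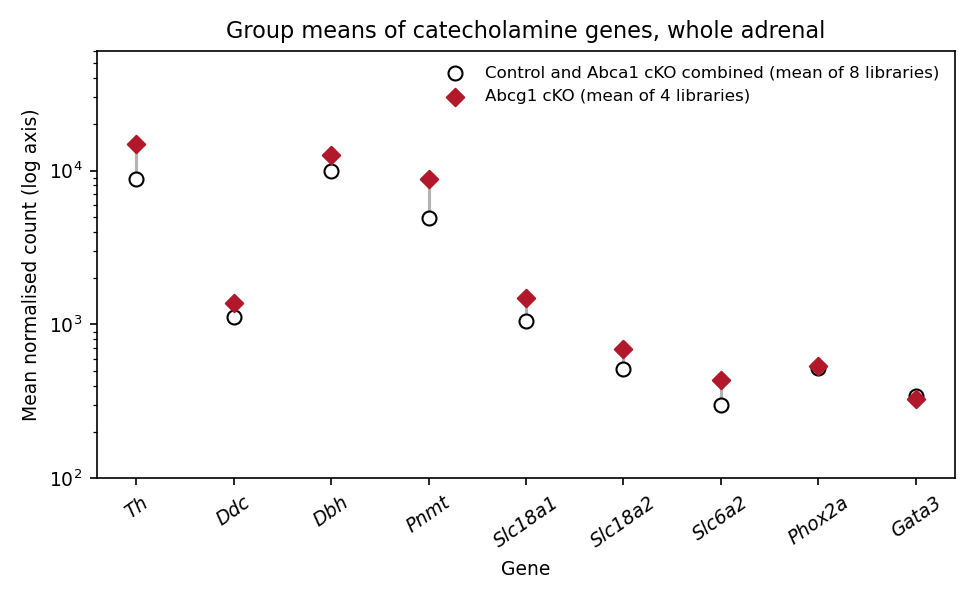
Mean normalised count (log axis) of each catecholamine gene for the combined group (open circles) and the Abcg1 cKO adrenals (red diamonds), as the authors averaged them, with no error bars because single libraries were not used. The pairs of Th and Pnmt lie furthest apart, at 8765 and 14984 and at 4908 and 8747, and those of Phox2a and Gata3 nearly coincide.

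All 4 enzymes had higher means, and the first and last steps of the pathway differed most. Th was at 8765 in the combined group and 14984 in Abcg1 cKO adrenals, a log2 ratio of 0.77. Pnmt, the adrenaline-forming enzyme, was at 4908 and 8747, a log2 ratio of 0.83, the largest of the 9. The middle steps stood closer together in the groups. Dbh, the granule enzyme, was at 9952 and 12559 (log2 ratio 0.34), and Ddc, which also serves other amine pathways, at 1121 and 1369 (log2 ratio 0.29). Ddc lay nearest to the 1.2-fold limit of the called genes, with a ratio of 1.22.

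The enzyme means did not keep their proportions. Dbh counts were 113.5% of Th counts in the combined group and 83.8% in Abcg1 cKO adrenals, and Ddc counts were 12.8% and 9.14% of Th counts. Pnmt counts kept nearly the same share of Th counts, 56.0% and 58.4%, but went from 49.3% to 69.7% of Dbh counts. Measured against chromogranin A (Chga), a bulk protein of the granule, Th went from 19.8% to 26.1% and Pnmt from 11.1% to 15.2%, while Dbh stood at 22.5% and 21.8%.

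The 3 transporters had log2 ratios in a narrow range, from 0.41 to 0.54, between those of the enzymes. Slc18a1, the vesicular monoamine transporter of endocrine cells (VMAT1), was at 1060 in the combined group and 1479 in Abcg1 cKO adrenals (log2 ratio 0.48). Slc18a2, its counterpart better known from neurons (VMAT2), was at 517.5 and 690.1 (log2 ratio 0.41). Slc18a1 counts were 2.05 times those of Slc18a2 in the combined group and 2.14 times in Abcg1 cKO adrenals, so this pair kept its proportion. Slc6a2, the noradrenaline transporter, was at 299.2 and 436.2 (log2 ratio 0.54).

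Phox2a and Gata3, transcription factors of the sympathoadrenal lineage, were the members that the 1.2-fold rule did not call. Phox2a, a homeobox factor known to act on the Th and Dbh promoters, was at 522.2 in the combined group and 533.8 in Abcg1 cKO adrenals (log2 ratio 0.03). Gata3, a zinc-finger factor that sympathoadrenal cells need, was at 345.0 and 329.6 (log2 ratio -0.07). In the GENCODE annotation, exons of Gata3 overlap a gene on the same strand and one on the opposite strand, and exons of Phox2a and Slc18a2 each overlap a gene on the opposite strand, so part of their counts is uncertain. The library kit was stranded, but none of the sources used here gives the strand setting of the counting.

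Set among all genes, the log2 ratios of the 9 genes spanned percentiles 35.6 (Gata3) to 98.8 (Pnmt). Th stood at percentile 98.6, Slc6a2 at 96.9, Slc18a1 at 96.1, Slc18a2 at 94.9, Dbh at 92.7 and Ddc at 90.9. Phox2a stood at percentile 57.1. For comparison, the central 50% of all genes lay between -0.13 and 0.12. The members with the highest means, Th, Dbh and Pnmt, were not all at one end, since Dbh lay below each transporter in log2 ratio.

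**Figure D2:**
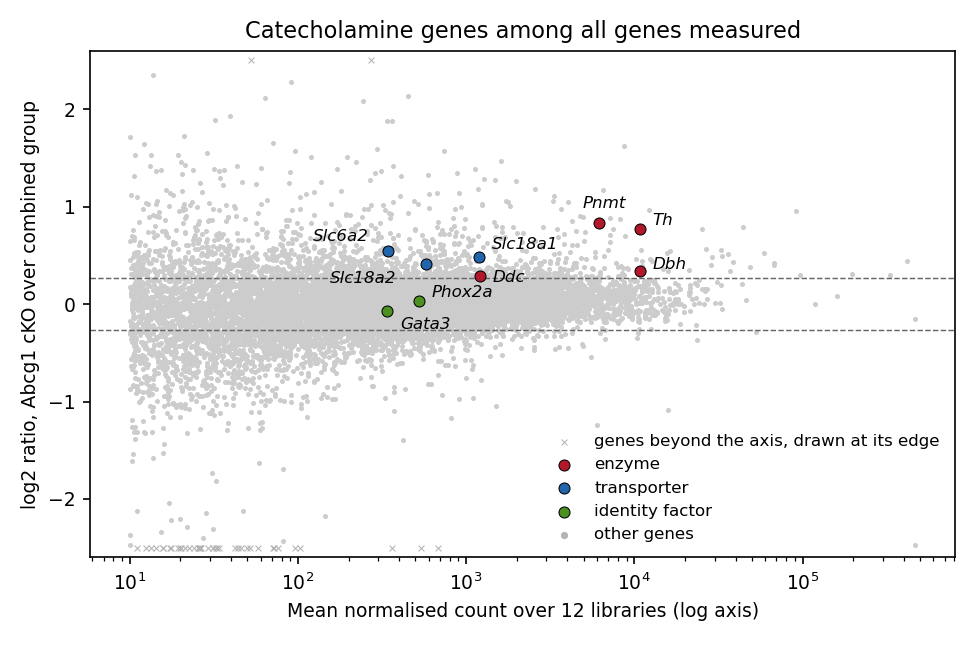
log2 ratio of group means against mean normalised count over the 12 libraries (log axis) for 14305 genes (grey) and the catecholamine genes (coloured by role). Dashed lines mark 1.2-fold, and 41 genes beyond 2.5 in either direction are drawn as crosses at the edge. Pnmt and Th lie highest among the members at 0.83 and 0.77, and Phox2a and Gata3 lie near 0.

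Per kilobase of the longest annotated transcript, which allows levels to be compared between genes, Th, Pnmt and Dbh stood far above the other members. In Abcg1 cKO adrenals their levels were 7684, 7580 and 4921 normalised counts per kilobase, and in the combined group 4495, 4253 and 3900. Ddc followed at 678.5 and 555.3, and Slc18a1 at 474.7 and 340.4. Phox2a was at 331.8 and 324.6, Slc18a2 at 157.1 and 117.8, and Gata3 at 102.5 and 107.3. Slc6a2 was lowest on this scale, at 70.5 and 48.4. The order of the 9 levels was the same in both groups. With the union of annotated exons as the length, Pnmt came before Th in both groups, and in the combined group Phox2a came before Ddc and Slc18a1. Whether neighbours in the order differ beyond their spread is not known, since no values of single animals were used.

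The starts of the genes were looked at because many members had higher means together. RefSeq (GRCm38.p6, the build mm10 of the study) gave windows from 250 bases before to 50 bases after the start for 6 of the 9 genes: Th, Ddc, Dbh, Slc18a2, Phox2a and Gata3, the last at a start inside the gene's full span. On both strands, 5 motifs were searched, chosen with these sequences in view: the cyclic AMP response element TGACGTCA, GATA motifs (AGATAA or TGATAA), AP-1 motifs (TGAGTCA or TGACTCA), the GC box GGGCGG and the TATA box TATAAA. The cyclic AMP response element, the letters bound by CREB family factors, was present in Th and Slc18a2 and in 1.79% of 32841 windows of all genes. In Th it spans bases -45 to -38 and in Slc18a2 bases -4 to 4, counted from the start as 1 with no base 0. GC boxes were present in Th, Slc18a2, Phox2a and Gata3 and in 35.7% of all windows. A GATA motif was found in Slc18a2 (18.6% of all windows), and no AP-1 motif in any window of the 6 genes (5.2% of all windows). The letters TATAAA were found in 1 of the 2 windows of Ddc (13.6% of all windows). There they lie on the strand opposite to the gene, at bases -68 to -63, so they are not shown to be its TATA box. Dbh held none of the 5 motifs.

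The stretches from 100 bases before to 20 bases after the start are shown for the 2 genes with the cyclic AMP response element, which is in capitals, and for Dbh and Phox2a, which lack it. Each reads 5' to 3' along the gene.
Th, chr7:142899976-142900095, minus strand: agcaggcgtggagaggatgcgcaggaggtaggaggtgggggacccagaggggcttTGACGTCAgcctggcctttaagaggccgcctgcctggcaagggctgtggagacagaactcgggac
Slc18a2, chr19:59260778-59260897, plus strand: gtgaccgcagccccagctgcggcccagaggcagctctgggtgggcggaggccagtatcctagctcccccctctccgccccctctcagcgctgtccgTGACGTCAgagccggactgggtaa
Dbh, chr2:27165407-27165526, plus strand: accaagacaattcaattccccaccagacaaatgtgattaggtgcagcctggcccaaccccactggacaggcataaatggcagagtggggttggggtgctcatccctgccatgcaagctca
Phox2a, chr7:101818213-101818332, plus strand: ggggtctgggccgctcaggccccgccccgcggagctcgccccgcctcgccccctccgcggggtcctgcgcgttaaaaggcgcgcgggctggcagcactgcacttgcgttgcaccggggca
Of these 4 genes, Th (log2 ratio 0.77), Slc18a2 (0.41) and Dbh (0.34) had higher means in Abcg1 cKO adrenals and Phox2a (0.03) did not. Ddc, not shown, was called higher at 0.29 and held no such element in its windows. Whether the element bears on the group means was not tested.

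The positions of the genes are spread over the genome. On GRCm38, Th lies on chromosome 7 from 142892779 to 142899995 and Phox2a on the same chromosome from 101818313 to 101822726. Dbh lies on chromosome 2 from 27165507 to 27183204 and Gata3 from 9857078 to 9887953. Ddc and Pnmt share chromosome 11, from 11814101 to 11898144 and from 98386623 to 98388180. Slc18a1 (69037708 to 69089238) and Slc6a2 (92960470 to 93001667) lie on chromosome 8, and Slc18a2 on chromosome 19 from 59260878 to 59296012.

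Among genes that supply the enzymes, the entry step to the Th cofactor had the largest log2 ratio. Gch1, the rate-limiting enzyme of tetrahydrobiopterin synthesis, was at 2210 in the combined group and 3069 in Abcg1 cKO adrenals (log2 ratio 0.47). It was the only one of 6 cofactor genes called, where 10.4% of all genes were called higher. The median of these 6 was 0.10, with log2 ratios of 0.19 for Pcbd1, 0.10 for Gchfr and Spr, 0.09 for Qdpr and -0.07 for Pts. Of 6 genes that supply granules with electrons and protons, Atp6v1b2, a subunit of the proton pump, was called (log2 ratio 0.32). Cyb561, the cytochrome that passes electrons to Dbh through ascorbate, was at 5213 and 6196 (log2 ratio 0.25), and the median of the list was 0.21.

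Genes of catecholamine breakdown and of other uptake carriers showed smaller or mixed differences. Maoa, a mitochondrial monoamine oxidase, was at 1971 in the combined group and 1678 in Abcg1 cKO adrenals (log2 ratio -0.23), whereas Maob was at 495.2 and 587.5 (log2 ratio 0.25). Sult1a1, a sulfotransferase, had a log2 ratio of 0.28. It was the only called gene of 5 with a mean of at least 10, where 10.4% of all genes were called higher. The sixth gene of that list, Akr1b3, was listed at 0. Of 5 other carriers, 2 had such a mean: Slc22a3, an extraneuronal uptake carrier, at 12.5 and 36.0 (log2 ratio 1.46), and Slc29a4, at 625.3 and 587.5 (log2 ratio -0.09). The dopamine transporter Slc6a3 was at 3.66 and 2.54.

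Lists of other medullary genes also had medians above 0. Among all genes, 10.4% were called higher, which is the background for the counts of the wider lists. The median of the cortical markers was itself 0.295, and none of the wider lists was centred on it. All 10 identity factors outside the members had log2 ratios above 0, with a median of 0.33, and 7 were called. They ranged from 0.06 for Isl1 to 0.68 for Hand1. Ret, a receptor of neurotrophic ligands, and Eya1 had log2 ratios of 0.43 and 0.35. Of 7 receptors that drive or brake release, 5 were called, with a median of 0.43. The nicotinic subunits Chrna3, Chrna7 and Chrnb2 had log2 ratios of 0.43, 0.46 and 0.43, whereas the subunit Chrnb4 was not called, at 0.15. The adrenergic receptor Adra2b had a log2 ratio of 0.52, on low means of 26.8 and 38.7. Adra2c was not called, at 0.02.

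Granins and vesicle proteins had a median of 0.33, with 8 of 11 called higher, against 10.4% of all genes. Chga was at 44281 in the combined group and 57501 in Abcg1 cKO adrenals (log2 ratio 0.38). Scg2, Syt1, Npy and Chgb had log2 ratios of 0.49, 0.43, 0.42 and 0.42. Vamp2, Stx1a and Penk were not called, at -0.15, -0.001 and 0.20. Th and Pnmt lay above every gene of this list.

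Of 7 measured regulators known to act on Th or Pnmt transcription, 4 were called higher, against 10.4% of all genes. All 4 are rapidly induced factors. Nr4a2 was at 444.9 in the combined group and 1323 in Abcg1 cKO adrenals (log2 ratio 1.57), Nr4a1 at 9327 and 18172 (0.96), Fos at 707.9 and 1183 (0.74) and Egr1, a factor that binds the Pnmt promoter, at 1964 and 2872 (0.55). Cortical cells also express these factors. Creb1 and Sp1 had log2 ratios of -0.04 and -0.03. Nr3c1, the glucocorticoid receptor, was at 775.2 and 777.0.

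**Figure D3:**
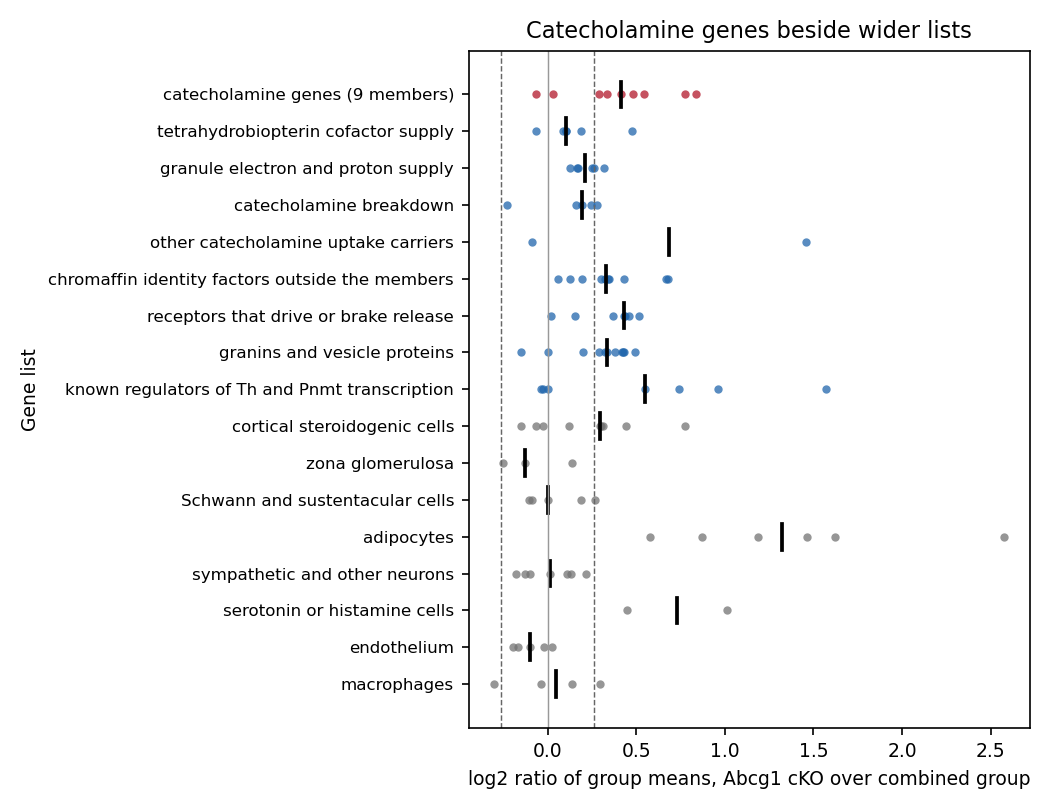
log2 ratio of group means for the catecholamine genes (red), the wider pathway lists (blue) and markers of other cell types (grey). Points are genes with a mean of at least 10, black bars are list medians, and dashed lines mark 1.2-fold. The bar of the catecholamine genes is at 0.41, that of granins and vesicle proteins at 0.33 and that of the adipocyte markers at 1.33.

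Markers of other cells also differed between the group means. The background for their counts is 10.4% of all genes called higher and 12.2% called lower. Over all 13 chromaffin markers the summed mean was 134282 in the combined group and 182090 in Abcg1 cKO adrenals, 9 of the 13 being the genes described here. The defining granins Chga and Chgb were far above 0, so transcripts of medulla were present in both groups. Of 9 cortical steroidogenic markers, 5 were called higher, with a median of 0.30 and sums of 1482740 and 1719146. This list includes steroidogenic enzymes, whose transcripts the paper reports as unaffected by loss of Abcg1. All 6 adipocyte markers were called higher, with a median of 1.33 and sums of 14099 and 33392. The part of these cells in the values of the catecholamine genes was not tested. Sympathetic and other neuron markers had no called gene of 7 and a median of 0.01, and Schwann and sustentacular markers 1 of 5 and a median of 0.004. Medians were -0.13 for 3 zona glomerulosa, -0.10 for 5 endothelial and 0.05 for 4 macrophage markers. Of the serotonin and histamine list, Slc6a4 and Hdc had log2 ratios of 1.01 and 0.45, and Tph1 and Tph2 had means under 3.

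Because 5 of the 9 cortical markers were called higher too, the count of called members depends on what the medulla is measured against. The cortical list was mixed, with log2 ratios from -0.15 for Hsd3b1 to 0.77 for Scarb1. Mc2r, Nr0b1 and Nr5a1 were at -0.07, -0.03 and 0.12. By quantitative PCR the paper found Scarb1 itself raised in Abcg1 cKO adrenals. The median of this list is therefore not a neutral reference for the cortex. Relative to the median of the cortical markers, 2 of the 9 genes were higher (Th at 0.48 and Pnmt at 0.54), 2 were lower (Phox2a at -0.26 and Gata3 at -0.36) and Ddc was at -0.01, while 2.85% of all genes were then higher and 57.2% lower. Relative to the median of 4 chromaffin markers outside the members, the granins Chga and Chgb among them, the same 2 genes were higher, Th at 0.42 and Pnmt at 0.48. Dbh was then at -0.02 and Ddc at -0.07, while Phox2a was at -0.33 and Gata3 at -0.42, and 2.36% of all genes were higher and 71.0% lower.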

How the data were processed

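The 12 libraries of whole-adrenal RNA were grouped by their labels (4 control, 4 Abca1 cKO, 4 Abcg1 cKO). NovaSeq and NextSeq instruments were used, and the sources used here do not say which library was run on which. According to the methods and processing notes, the authors used bcl2fastq 2.20.0.422, cutadapt 4.0, FastQC 0.11.9, BBTools, STAR 2.7.10a with mm10, HTSeq 0.13.5 (reads mapping to a single place), and DESeq2 1.38.3. The signal values used here are mean normalised counts that the authors deposited: counts divided by size factors and averaged over a group. The overall mean weighted both group means by 8 and 4 libraries in all 15293 genes checked. A further 12 columns of single libraries bear names that match no label and entered no calculation. Another 4 columns hold the authors' own comparison (fold change, its error and p-values) and were not used. Raw depth is thus unknown, and the planned limma tests, with their left-out libraries, were not run.

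Ratios were computed with Python 3.11.15 and pandas 2.3.3 (pseudocount 1, mean of at least 10). The calculation was checked on simulated means with large planted changes and no spread between animals. That check does not bear on smaller differences or on a single high library. Lengths came from GENCODE M21, positions and starts from RefSeq, both GRCm38. The members and lists were chosen with earlier results of these data known. Named were all members, up to 4 genes of largest ratio per wider list, 7 fixed genes, Abcg1 and Abca1. Some of these are not reported here, and some others are named for context, chosen after their values were seen. Alternatives were pseudocounts, filters, folds, centring and length.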

Additional observations from a re-analysis of the deposited data

How the results depend on the processing

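Pseudocounts of 0.1 and 10, no filter, a mean of at least 50, a fold of 1.1 and centring on the median of all genes (0.001) left 7 of the 9 genes higher. Only 2 were higher at a fold of 1.5. Centred on the median of the cortical markers (0.295), 2 genes were higher, the median log2 ratio of the members was 0.119 and Ddc changed sign to -0.006. Centred on 4 other chromaffin markers, an alternative chosen after seeing the data, 2 were higher, the median was 0.057, and Ddc and Dbh changed sign to -0.068 and -0.022. The median of the 2 other uptake carriers was 0.473 with a pseudocount of 10 and 0.685 with 1, since Slc22a3 is low. All other list medians moved by at most 0.1 and their counts by less than 1.5 times under both pseudocounts and the centring on all genes. With the union of exons as length, 7 of the 9 members kept their place in the order of levels in Abcg1 cKO adrenals.

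No paired analysis was possible because columns of single libraries could not be tied to labels by their names. Whether the deposited group means show which columns belong to Abcg1 cKO was not computed. The group of the high library was therefore not sought, and no library was left out. Without values per library or raw depth, these means carry no error. On inspection, 1 of the 12 columns of single libraries was well above the rest for nearly all of the 9 genes, so the group difference needs a check against labelled libraries before it is used. How far that library sets the means was not tested.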
